A study of Mus musculus with 12 samples.

Results

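The 10 natural killer (NK) and cytotoxic genes *Ncr1*, *Klrb1c*, *Klrk1*, *Gzma*, *Gzmb*, *Prf1*, *Nkg7*, *Eomes*, *Tbx21* and *Il2rb* were followed in dim tdT and bright tdT cells sorted from mouse glomeruli. They were taken by gene name from 19564 genes listed in the tables of the dim and bright subpopulations. All 10 were listed among the 17811 genes of the dim table, and 6 among the 17521 genes of the bright table. *Ncr1*, *Klrb1c*, *Prf1* and *Nkg7* were absent from the bright table. Their levels there are therefore not given, and they enter only the comparison of AS and WT in the dim libraries.

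RNA-seq libraries came from 3 wild type (WT) mice and 3 Alport syndrome (AS) mice, which are knocked out for *Col4a5*, the gene of a chain of the type IV collagen of the glomerular basement membrane. Each mouse gave a dim and a bright library, so that WT-dim, AS-dim, WT-bright and AS-bright had 3 libraries each. All mice were C57BL/6, 4 months old and carried TekCre tdTomato, a red fluorescent reporter (tdT) switched on by Cre recombinase under the promoter of *Tek*, an endothelial receptor gene. Recombination is permanent, so the reporter marks the descendants of any cell in which the promoter was active. All libraries are labelled as glomerular endothelial cells (GEC).

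NK cells are innate lymphocytes that kill infected or transformed cells without prior priming. Activating receptors such as NKp46, NK1.1 and NKG2D trigger the release of granules, in which perforin forms pores and granzymes cleave targets to start cell death. The T-box factors T-bet and Eomes drive the maturation of these cells, and interleukin-15 keeps them alive through a receptor that contains the product of *Il2rb*. Cytotoxic T cells use the same granule proteins, so that most of these genes do not tell both cell types apart.

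The markers of the labelled cell type separated the subpopulations. The 12 genes of a glomerular endothelium list summed to 730 to 1375 CPM (counts scaled to a common library size) in WT-dim and to 226 to 317 CPM in AS-dim, against 11800 to 16881 CPM in WT-bright and 15897 to 18985 CPM in AS-bright. *Ptprc*, which codes for the leukocyte antigen CD45, had 7957 to 13303 counts in WT-dim, 15743 to 19298 in AS-dim, 28 to 65 in WT-bright and 38 to 124 in AS-bright. The dim libraries thus went against their endothelial label and are called by the tdT gate here. *Col4a5* had 439 to 877 counts in WT-dim and 17 to 51 in AS-dim, whereas its 69 to 158 counts in WT-bright overlapped the 43 to 104 in AS-bright. Libraries held 11440169 to 15074909 counts on genes.

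The DNA just before the start of these genes is shown as background, since the members were found together in the dim cells. Of the 10 genes, 9 had an entry among RefSeq promoters (GRCm38.p6), and *Il2rb* had none. In the 250 bases before the start, TGTGGT, the core bound by RUNX factors, was found on either strand in 7 of these 9 genes and in 14% of 32817 distinct windows of the same length. The 7 were *Ncr1*, *Klrb1c*, *Klrk1*, *Gzma*, *Gzmb*, *Prf1* and *Nkg7*. The T-box letters GGTGTGA were found in 1 of the 9 genes, *Nkg7*, from 13 to 7 bases before its start, and in 3.33% of all windows. The STAT letters TTCNNNGAA were also found only in *Nkg7* among the 9, from 220 to 212 bases before its start, and in 7.01% of all windows. None of these letter matches overlapped another in the 9 windows. *Eomes* and *Tbx21* held no match. Positions are counted from the RefSeq start, which for *Nkg7* and *Klrb1c* lies inside the gene as Gencode draws it, so that the T-box match of *Nkg7* and the RUNX match of *Klrb1c* fall within the Gencode gene. The *Prf1* window also ends just past the Gencode start. The windows of the granule genes *Gzmb*, *Gzma* and *Prf1* and of the receptor genes *Ncr1* and *Klrk1* are printed 5′ to 3′ along the gene, with TGTGGT or its reverse complement in capitals. They lie at chr14:56262335-56262584 (minus strand), chr13:113100982-113101231 (minus strand), chr10:61297586-61297835 (plus strand), chr7:4337465-4337714 (plus strand) and chr6:129623865-129624114 (minus strand) of GRCm38.
Gzmb: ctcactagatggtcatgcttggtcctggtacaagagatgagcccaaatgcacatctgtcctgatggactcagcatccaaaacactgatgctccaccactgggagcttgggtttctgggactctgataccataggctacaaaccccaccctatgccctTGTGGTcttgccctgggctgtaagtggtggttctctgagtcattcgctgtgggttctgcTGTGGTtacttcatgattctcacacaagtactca
Gzma: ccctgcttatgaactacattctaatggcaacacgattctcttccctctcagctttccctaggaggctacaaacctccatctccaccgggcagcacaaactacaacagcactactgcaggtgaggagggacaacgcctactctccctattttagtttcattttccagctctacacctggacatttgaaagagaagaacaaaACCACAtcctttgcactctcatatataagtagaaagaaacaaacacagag
Prf1: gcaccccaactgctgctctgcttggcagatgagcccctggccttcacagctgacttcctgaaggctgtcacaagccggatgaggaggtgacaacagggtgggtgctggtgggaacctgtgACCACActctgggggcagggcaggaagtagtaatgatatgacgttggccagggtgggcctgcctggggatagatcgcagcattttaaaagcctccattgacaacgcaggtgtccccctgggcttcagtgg
Ncr1: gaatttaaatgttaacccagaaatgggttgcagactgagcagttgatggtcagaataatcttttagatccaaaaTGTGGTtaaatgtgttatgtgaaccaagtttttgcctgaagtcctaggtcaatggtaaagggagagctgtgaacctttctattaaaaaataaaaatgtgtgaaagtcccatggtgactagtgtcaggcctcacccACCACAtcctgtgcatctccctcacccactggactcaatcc
Klrk1: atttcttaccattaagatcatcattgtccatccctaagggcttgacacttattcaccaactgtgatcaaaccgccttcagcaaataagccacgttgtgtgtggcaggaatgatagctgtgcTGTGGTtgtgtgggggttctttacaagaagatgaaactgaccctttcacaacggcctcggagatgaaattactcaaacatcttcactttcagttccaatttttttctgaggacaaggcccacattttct
*Gzmb* and *Ncr1* held the motif at 2 places each, from 93 to 88 and from 34 to 29 bases before the start of *Gzmb* and from 176 to 171 and from 41 to 36 bases before that of *Ncr1*. In *Gzma* it stood from 50 to 45, in *Prf1* from 130 to 125 and in *Klrk1* from 129 to 124 bases before the start. A match of letters is a description of the sequence and was not tested as a binding site.

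The granzymes gave the highest levels of the group in dim cells. Levels of different genes were compared as RPKM, reads scaled to the length deposited for each gene and to the reads of the library. For *Nkg7* and *Eomes* these lengths, 2103 and 8093 bases, are longer than the genes as Gencode draws them. The order of the genes and their ranks thus rest in part on the deposited lengths. *Gzmb* (granzyme B, a protease that activates caspases) had 269 ± 47.6 RPKM over the 6 dim libraries (SD), and stood at rank 108 of 17811 genes. *Gzma* (granzyme A, a trypsin-like protease) followed with 82.5 ± 19.7 RPKM at rank 375. *Il2rb*, the beta chain shared by the receptors of interleukin-2 and interleukin-15, had 38.2 ± 5.47 RPKM at rank 861. In these 3 genes no library of the higher gene reached down to a library of the next. *Nkg7*, a granule membrane protein, had 18.9 ± 5.11 RPKM, and was higher than *Ncr1* within each of the 6 libraries although the ranges overlapped.

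*Ncr1* (NKp46, an activating receptor of NK cells) had 12.1 ± 2.47 RPKM. *Prf1* (perforin) had 10.2 ± 2.60 RPKM and *Tbx21* (T-bet) 9.92 ± 3.14 RPKM. The order of these 3 genes lay within their spread, since *Prf1* was above *Tbx21* in only 3 of 6 libraries. *Klrk1* (NKG2D, a receptor of stress ligands) had 5.81 ± 1.02 RPKM, *Klrb1c* (NK1.1, the classical NK marker of this strain) 2.92 ± 1.42 RPKM and *Eomes* 1.20 ± 0.210 RPKM. The lowest library of *Klrb1c*, at 0.897 RPKM, lay below the 0.919 to 1.43 RPKM of *Eomes*, so that the ranges of the genes overlapped. *Klrb1c* was above *Eomes* in 5 of 6 libraries. The levels per length thus spanned the table from rank 108 for *Gzmb* to rank 10187 for *Eomes*. *Klrk1* is the longest of the 10 genes in the deposited lengths, with 10460 bases, and stood higher in the order by counts than in that by RPKM. *Eomes* was lowest in both.

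**Figure D1:**
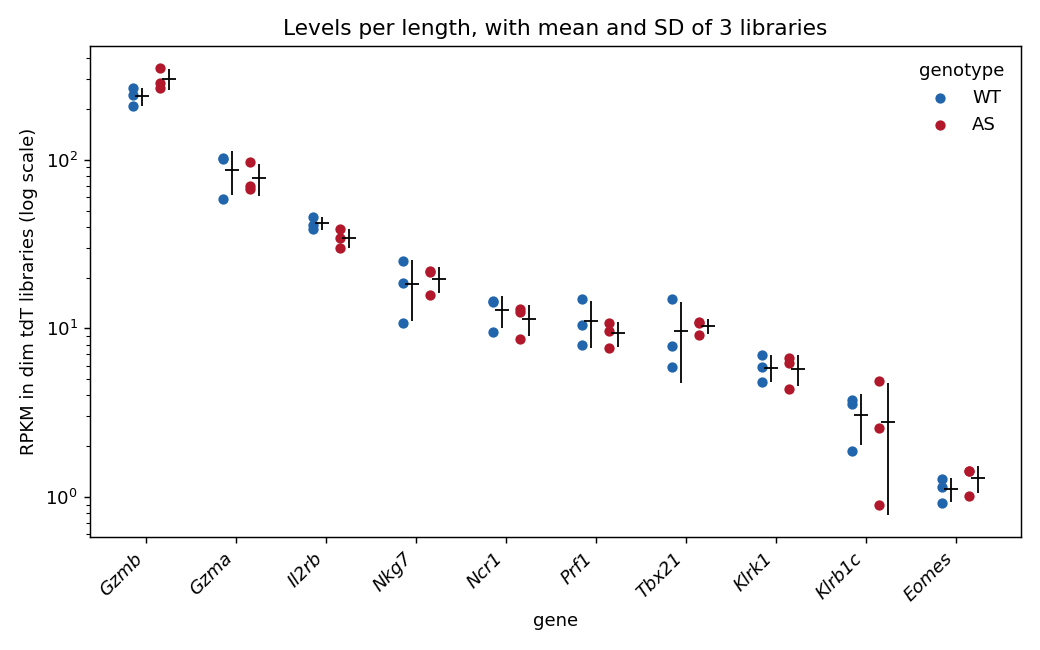
RPKM (log axis) of the 10 genes in the dim tdT libraries, with WT in blue, AS in red and a black mark with bar for the mean and SD of 3 libraries. *Gzmb* sits at 207 to 349 RPKM, above every library of every other member, and *Eomes* at 0.919 to 1.43 RPKM.

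Between AS and WT, none of the 10 genes passed the test in the dim cells. No member had an unadjusted p under 0.05 either, which 3844 of the 14637 genes tested had, and DESeq2 and edgeR's likelihood ratio test called 0 of the 10. Across all 14637 genes tested there 8.63% passed, with edgeR's quasi-likelihood test, Benjamini-Hochberg adjustment over all genes tested and a threshold of 0.05. The 10 log2 fold changes of AS over WT ran from -0.39 to 0.24, and 8 were below 0. The estimates of *Nkg7* and *Tbx21*, which lay next to 0, were above 0 when only library sizes were used for scaling. With the level of the pan-leukocyte markers as a covariate, *Il2rb* alone stayed below 0, and no member passed. The median of the 10 was -0.19, against -0.02 over all genes tested. Intervals are 95% intervals of the log2 fold change from the same fit, and p-values measure the spread between 3 mice a group.

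Of the receptors, *Ncr1* (GRCm38 chromosome 7, 4337724 to 4345164, plus strand) had 525, 514 and 351 counts in WT-dim replicates 1 to 3 and 533, 452 and 320 in AS-dim. The groups overlapped, with 39.8 ± 9.27 CPM (SD, n = 3) in WT and 32.8 ± 6.77 CPM (SD, n = 3) in AS. The log2 fold change was -0.28 (interval -0.93 to 0.38, adjusted p = 0.588, edgeR). *Klrk1* (chromosome 6, 129610323 to 129623864, minus strand) had 881, 736 and 621 counts in WT-dim and 960, 555 and 814 in AS-dim. Its log2 fold change of -0.14 (interval -0.71 to 0.44) came with overlapping groups. *Klrb1c* (chromosome 6, 128778485 to 128789215, minus strand) varied most, with 252, 262 and 135 counts in WT-dim and 388, 181 and 65 in AS-dim.

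AS-dim replicate 1 held the highest and AS-dim replicate 3 the lowest *Klrb1c* count of all dim libraries. The log2 fold change of -0.25 had an interval of -1.53 to 1.03. *Klrb1c* overlaps *Gm44511* on the same strand and has close relatives in its gene family, so its counts are uncertain. *Il2rb* (chromosome 15, 78479256 to 78495271, minus strand) had 2580, 2280 and 2208 counts in WT-dim and 2471, 1921 and 1729 in AS-dim. On the CPM scale it was the only member whose groups did not overlap, with 184 to 229 CPM in WT and 135 to 170 CPM in AS. Of all genes tested 31.2% did not overlap in this way. The log2 fold change of *Il2rb* was -0.39 (SE 0.18, interval -0.81 to 0.03, adjusted p = 0.218, edgeR), and it did not pass.

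Among the granule genes, *Gzmb* (chromosome 14, 56258838 to 56262260, minus strand) had 4230, 4590 and 3696 counts in WT-dim and 5308, 5005 and 6267 in AS-dim. Scaled to library size the groups overlapped, at 308 to 387 CPM and 366 to 489 CPM. The log2 fold change was 0.24 (interval -0.18 to 0.65, adjusted p = 0.466, edgeR). *Gzma* (chromosome 13, 113093825 to 113100981, minus strand) had 2317, 2310 and 1358 counts in WT-dim and 1727, 1601 and 2288 in AS-dim. The estimates of the 2 granzymes thus lay on different sides of 0, *Gzma* at -0.27 (interval -0.89 to 0.36), and neither passed.

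*Prf1* (chromosome 10, 61297833 to 61304680, plus strand) had 568, 794 and 439 counts in WT-dim and 655, 522 and 423 in AS-dim. Its log2 fold change of -0.35 (SE 0.28, adjusted p = 0.477, edgeR) came with overlapping groups. *Nkg7* (chromosome 7, 43437073 to 43438249, plus strand) had 647, 470 and 281 counts in WT-dim and 621, 555 and 413 in AS-dim. The mean level was 40.2 ± 17.1 CPM (SD, n = 3) in WT and 40.0 ± 6.82 CPM (SD, n = 3) in AS, and the interval of the log2 fold change ran from -0.79 to 0.78.

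Of the transcription factors, *Tbx21* (chromosome 11, 97098071 to 97115331, minus strand) had 239, 450 and 181 counts in WT-dim and 311, 330 and 335 in AS-dim. The AS libraries lay inside the range of the WT libraries, and the interval of the log2 fold change was -0.84 to 0.84. *Eomes* (chromosome 9, 118478212 to 118486132, plus strand) had 113, 124 and 92 counts in WT-dim and 113, 140 and 143 in AS-dim. The interval of its log2 fold change of 0.10 was -0.73 to 0.93. *Eomes* overlaps the antisense gene *Gm33460*, and the strand used for counting is not given in the sources used here.

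**Figure D2:**
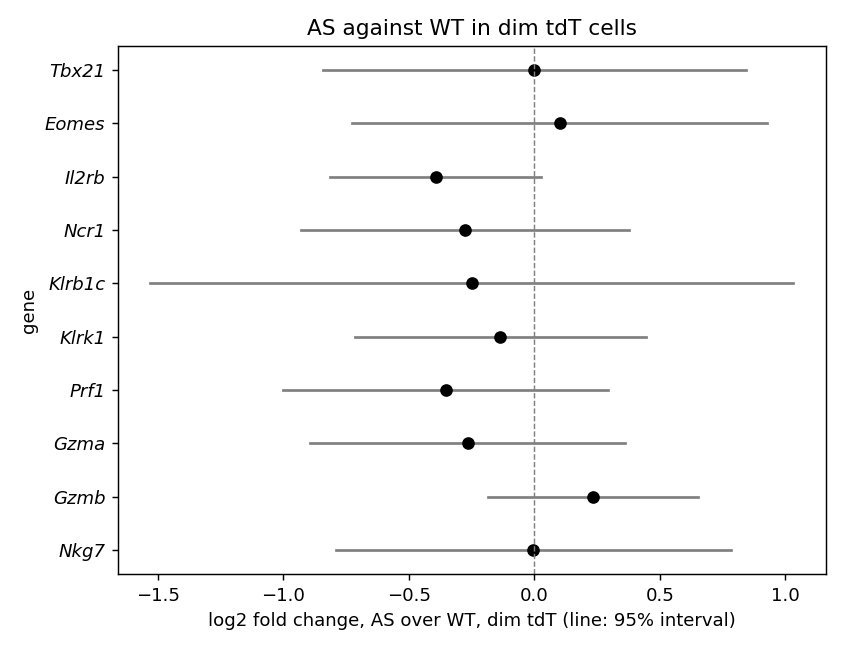
Log2 fold change of AS over WT in the dim tdT libraries (points) with the 95% interval (lines) for the 10 genes. Each line crosses 0, the widest being that of *Klrb1c*, -1.53 to 1.03, and that of *Il2rb* runs from -0.81 to 0.03.

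The spread between mice was shared by many of the members in WT-dim. WT-dim replicate 3 lay below the mean of its group for 10 of 10 genes, by a median of -0.43 on the log2 scale. WT-dim replicate 1 lay above it for 9 of 10 genes and WT-dim replicate 2 for 8 of 10. Deviations from a group mean cancel for each gene, so that the counts of replicates 1 and 2 follow in part from that of replicate 3. In AS-dim, 6, 7 and 5 of 10 genes lay above the group mean in replicates 1, 2 and 3. WT-dim replicate 3 also held the most *Ptprc* of the WT-dim libraries, 1108 CPM against 707 and 837, the least *Tek*, 124 counts against 224 and 203, and the most *S100a8*, a neutrophil gene, with 163 CPM against 18.5 and 27.7. WT-dim replicate 1 held the most *Slc34a1*, a proximal tubule gene, with 2245 CPM against 456 in replicate 2 and 529 in replicate 3. The part of these differences in the result was not tested.

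**Figure D3:**
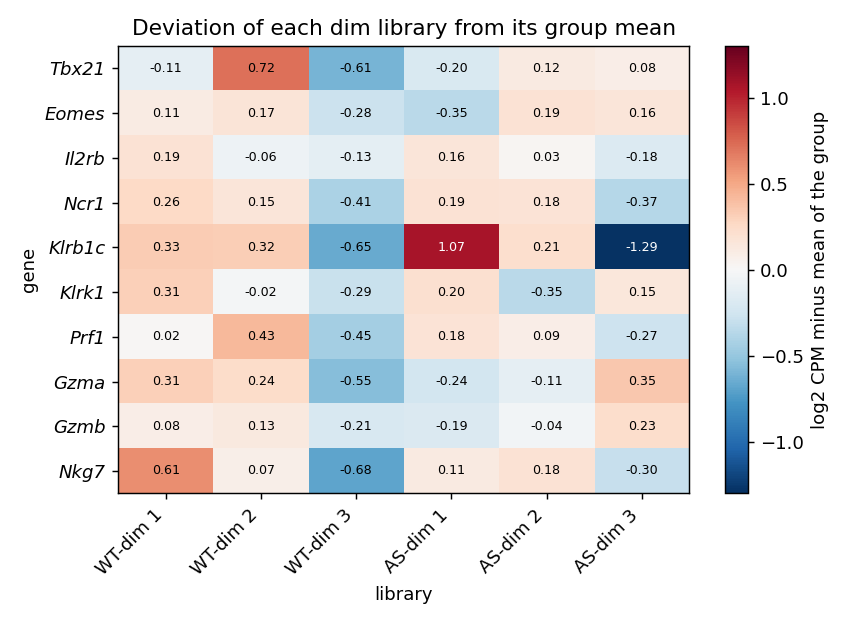
Log2 CPM of each of the 10 genes in each dim tdT library minus the mean of its group (colour and printed value). The column of WT-dim replicate 3 is below 0 for all 10 genes, from -0.68 to -0.13, and *Klrb1c* runs from -1.29 to 1.07 within AS-dim.

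The leukocyte markers of the dim libraries were set beside the members. *Ptprc* ranged from 707 to 1108 CPM in WT-dim and from 1276 to 1415 CPM in AS-dim. The 8 pan-leukocyte markers summed to 7238 to 12044 CPM in WT-dim and to 12066 to 12707 CPM in AS-dim. None of the 8 passed the test, and each had a log2 fold change above 0. The 10 members summed to 780 to 1098 CPM in WT-dim and to 903 to 999 CPM in AS-dim. Of 9 macrophage markers 4 were higher in AS-dim, among them *Adgre1* and *Csf1r*, whereas 0 of 11 T cell, 0 of 7 B cell, 0 of 7 neutrophil, 0 of 6 dendritic cell, 0 of 3 innate lymphoid cell and 0 of 3 mast cell and basophil markers tested passed. The T cell markers summed to 291 to 442 CPM in WT-dim and to 392 to 435 CPM in AS-dim. Of the kidney cell lists, 8 of 12 endothelial, 3 of 6 podocyte, 5 of 10 proximal tubule and 0 of 4 mesangial and mural markers were lower in AS-dim. Of all genes tested 8.63% passed in either direction, so that 0 calls in lists this short show nothing. The calls rest on few mice, since no gene passed without AS-dim replicate 1. With the level of the proximal tubule markers as a covariate hardly any gene passed. The part of these markers in the members' values was not tested.

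Set against *Ptprc* of the same library, all 10 members had a lower mean in AS-dim than in WT-dim, a view chosen after the values had been seen. The ratio of the AS to the WT mean ran from 0.480 for *Il2rb* to 0.738 for *Gzmb* (median 0.538), and the median over all 14637 genes tested was 0.633. A lower mean was thus common among all genes, and the count of 10 is no result about the members. With the level of the pan-leukocyte markers as a covariate, *Il2rb* alone kept a negative log2 fold change. *Il2rb* had 324, 230 and 166 counts for every 1000 *Ptprc* counts in WT-dim and 128, 122 and 95.4 in AS-dim. It was the only member without overlap between the groups, which 36.3% of all genes tested showed in this direction, and the exact two-sided permutation test gave p = 0.1, the smallest that 3 against 3 allows. *Gzmb* had 532, 463 and 278 counts for every 1000 *Ptprc* counts in WT-dim and 275, 318 and 346 in AS-dim, with overlap. In bulk libraries, fewer cells of a type and less RNA per cell cannot be told apart.

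Compared with the dim cells, the bright cells held little of the 6 members listed there. The 6 members in the bright table reached 0 to 62 counts per library, where the same 6 had 92 to 6267 in the dim libraries. Only *Gzmb* was kept by the filter on low counts when the bright libraries were considered alone. The other 5 members entered the comparison of bright and dim through their dim counts, so that neither their number nor their p-values support a difference. Their folds are given as a description, as the pooled ratio of dim over bright with a 95% interval that covers counting error only. In WT, 5 of the 6 were lower in bright cells and 11.5% of 14247 genes tested were lower. In AS, 6 of the 6 were lower and 26.5% of 14052 genes tested were lower.

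*Gzmb* had 25, 3 and 6 counts in WT-bright replicates 1 to 3 and 28, 40 and 10 in AS-bright. No bright library came near a dim library, of which the lowest held 3696. The log2 fold change of bright over dim was -8.82 (SE 0.51, adjusted p = 4.97e-06, edgeR) in WT and -7.89 (SE 0.34, adjusted p = 5.51e-08, edgeR) in AS, or 452-fold and 237-fold lower. WT-bright replicate 1 held most of the *Gzmb* counts of its group, and without it the log2 fold change in WT was -10.10. *Gzma* had 15, 2 and 0 counts in WT-bright and 8, 2 and 9 in AS-bright. The pooled ratio was 437 (272 to 750.02) in WT and 328 (210.1 to 546) in AS. The WT value rests on WT-bright replicate 1, without which 2 counts were left and the fitted log2 fold change moved from -8.74 to -11.06. *Il2rb* had 3, 3 and 10 counts in WT-bright and 3, 19 and 6 in AS-bright. The pooled ratio was 548 (337 to 959) in WT and 243 (168 to 366) in AS. The fitted log2 fold change moved from -9.06 to -9.84 without WT-bright replicate 3 and from -7.90 to -8.92 without AS-bright replicate 2.

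*Klrk1* had 2, 0 and 2 counts in WT-bright and 8, 18 and 1 in AS-bright. With 4 counts in all of WT-bright, the pooled ratio was 694 (271 to 2549). In AS it was 95.9 (65.7 to 146), and the fitted log2 fold change moved from -6.56 to -7.52 without AS-bright replicate 2. *Tbx21* had 7, 1 and 0 counts in WT-bright and 7, 4 and 9 in AS-bright. The pooled ratio was 135 (68.1 to 313) in WT and 54.2 (34.9 to 89.2) in AS. In WT the fitted log2 fold change of -7.00 moved to -9.11 without WT-bright replicate 1 and to -6.42 without WT-bright replicate 3.

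*Eomes* had 2, 62 and 0 counts in WT-bright and 2, 8 and 5 in AS-bright. WT-bright replicate 2 stood apart at 4.40 CPM, against 0.136 and 0 CPM in the other WT-bright libraries. This library held 3 *Gzmb*, 2 *Gzma*, 0 *Klrk1*, 1 *Tbx21* and 3 *Il2rb* counts, and 28 *Ptprc* counts, the fewest of all 12 libraries. In WT *Eomes* was the member not called lower, with a fitted log2 fold change of -2.65 (SE 0.91). It was -2.87 with the mouse as a block, -6.92 without WT-bright replicate 2 and -2.04 without WT-bright replicate 3. *Eomes* too entered through its dim counts, so that these values are a description and whether it passed supports nothing. The pooled ratio was 6.38 (4.86 to 8.47) in WT and 29.3 (17.6 to 52.9) in AS. The bright and dim libraries did not overlap for any of the 6 genes in WT or in AS, and 19.7% and 30.5% of all genes tested were lower without overlap.

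**Figure D4:**
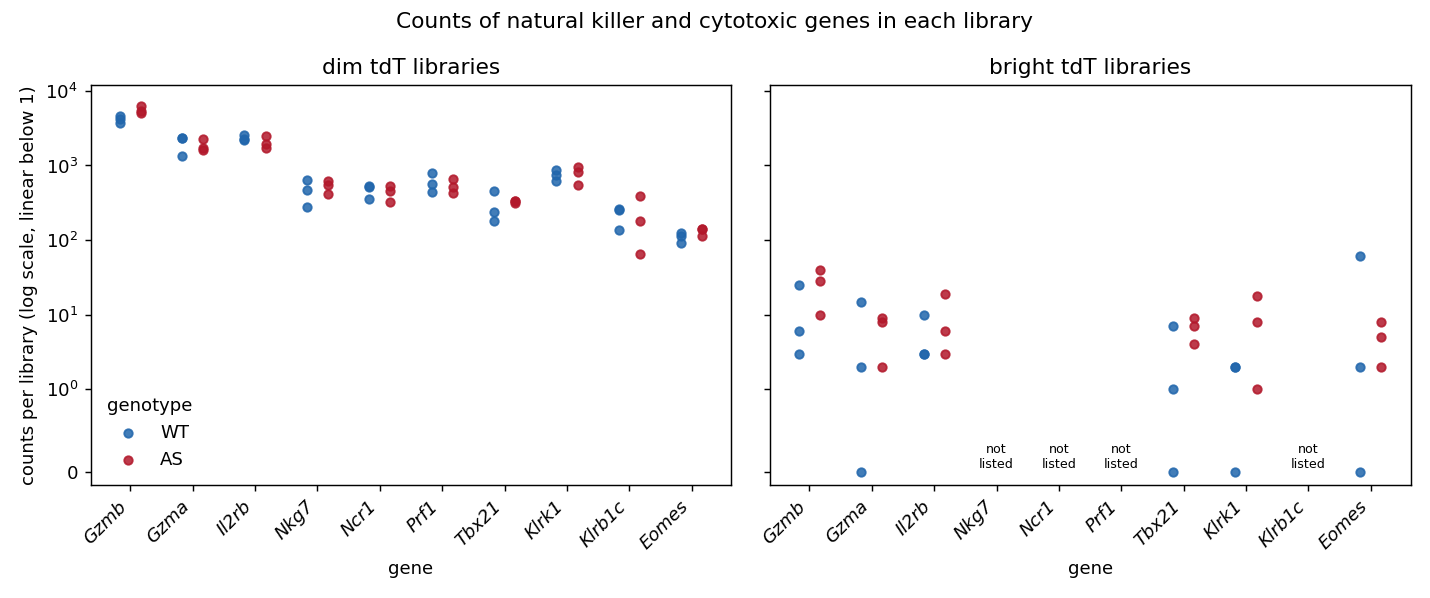
Counts of the 10 genes in each dim tdT (left) and bright tdT (right) library, on a log axis that is linear below 1, with WT in blue and AS in red. The 6 members listed in the bright table sit at 0 to 62 counts there, the highest being *Eomes* in 1 WT-bright library, and 4 members are not listed.

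The bright level was then expressed as a percentage of the dim level in the same mouse, on one scale for all 12 libraries. Over the 6 mice the median was 0.286% for *Gzmb*, 0.229% for *Gzma*, 0.221% for *Il2rb* and 0.207% for *Klrk1*. For *Tbx21* it was 1.53% and for *Eomes* 2.51%, with the highest value, 42.2%, in WT replicate 2. The other leukocyte genes gave values of the same order, with a median of 0.248% for *Ptprc*, 0.728% for *Cd8a* of T cells and 0.745% for *Adgre1* of macrophages. Over the 8 pan-leukocyte markers the values ran from 0.131% to 5.08% (median 0.684%). Over the members without *Eomes* they ran from 0% to 2.55% (median 0.284%). Their part in the bright counts was not tested.

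**Figure D5:**
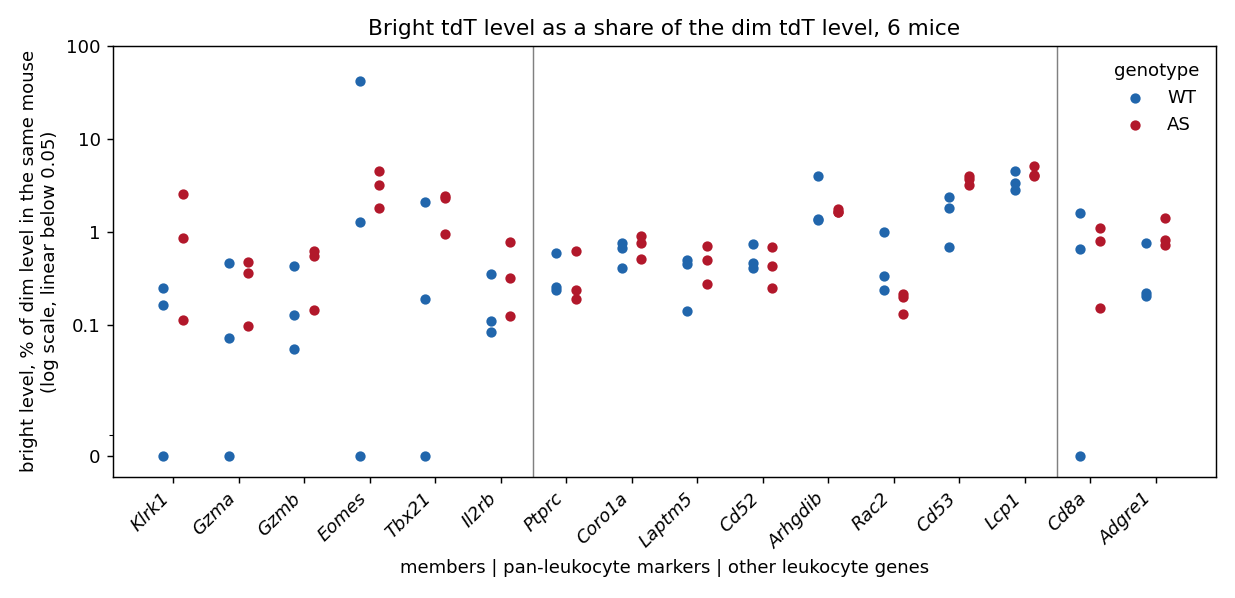
Bright tdT level as a percentage of the dim tdT level in the same mouse (log axis, linear below 0.05) for the 6 members in both tables, the 8 pan-leukocyte markers and other leukocyte genes, with 3 WT mice in blue and 3 AS mice in red. Apart from *Eomes* in 1 WT mouse, at 42.2%, the members lie at or below 4.50%, and the pan-leukocyte markers between 0.131% and 5.08%.

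In bright cells only *Gzmb* could be tested between AS and WT. Its log2 fold change was 1.19 (interval -0.43 to 2.81, adjusted p = 0.373, edgeR), where 0.452% of 14396 genes tested passed. It was 2.49 without WT-bright replicate 1, 2.30 with the proximal tubule and -0.31 with the pan-leukocyte covariate, and passed in none of these fits. The AS effect was then compared between bright and dim cells for the 6 members in both tables. None passed, and 3.77% of 15084 genes tested passed. An unadjusted p under 0.05 was found for 1 of the 6 and for 2783 of all genes tested, a like share. The 5 members other than *Gzmb* entered this comparison too only through their dim counts, so that their values are a description and their p-values support nothing. *Klrk1* had the largest difference of the 6, a log2 difference of 2.80 (SE 1.11, interval 0.45 to 5.15, adjusted p = 0.181, edgeR), and it rests on 4 counts in WT-bright and 27 in AS-bright. It was 1.74 without AS-bright replicate 2, which held 18 of these counts. This library also held the most *Ptprc* of the AS-bright libraries, 124 counts against 44 and 38. DESeq2 gave *Klrk1* a log2 difference of 2.86 with an adjusted p of 0.044, the only call among the alternatives, which ranged up to an adjusted p of 0.573. *Eomes* had a log2 difference of -2.16 (interval -4.97 to 0.65), which turned to 2.15 without WT-bright replicate 2.

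Of the 143 other genes of the NK cell pathway that were looked up in 10 lists, 128 were in the dim table and 123 were tested there. Between AS and WT in dim cells 5 were higher and 2 lower, or 5.69% of those tested, below the 8.63% of all genes tested. The count is thus no result about the lists. The calls also rest on few mice. Over all genes tested 1263 passed, against 0 without AS-dim replicate 1, 1 without AS-dim replicate 3, 484 without AS-dim replicate 2, 786 without WT-dim replicate 1, 800 without WT-dim replicate 2 and 1825 without WT-dim replicate 3. Of 19 inhibitory receptors only *Klra2*, a Ly49 family receptor with close relatives, was higher, at 60.4 ± 17.5 CPM against 25.3 ± 4.95 CPM (SD, n = 3 each). Of 15 transcription factors tested *Runx3* and *Nfil3* were higher, *Runx3*, a RUNX factor of cytotoxic lymphocytes, at 96.6 ± 11.2 CPM against 44.5 ± 6.30 CPM (log2 fold change 1.12, SE 0.21, adjusted p = 0.0244, edgeR). *Nfil3*, needed for NK cell development, had a log2 fold change of 1.02 and was named after its value was seen.

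Of 7 granule effectors tested, the lysosomal proteases moved in opposite directions. *Ctsc*, which trims granzymes to their active form, had a log2 fold change of 1.14 and was named after its value was seen. *Ctsl* fell by 1.38 on the log2 scale. Of the 12 NK receptor ligands and cytokines tested, *Pdgfd*, a growth factor bound by a human NK receptor, fell by 1.84. No gene passed among 19 activating receptors and adaptors, 12 genes of granule exocytosis, 9 death ligands and cytokines, 13 cytokine receptors and signalling genes and 6 inhibitors of cytotoxicity. *Ctsc*, *Ctsl* and *Pdgfd* are not restricted to lymphocytes.

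In bright against dim cells, 81 of the 143 genes were in both tables, and 62 were not. Of these 81, 47 (58%) were lower and 10 (12.3%) higher in WT, where 11.5% of all genes tested were lower and 13.8% higher. In AS, 55 (67.9%) were lower and 12 (14.8%) higher, where 26.5% of all genes tested were lower and 28.6% higher. As with the members, 16 of the 81 did not pass the filter in the bright libraries alone and entered through their dim counts, so that the counts are a description and no support for a difference. Among the genes named below these were *Fcgr3*, *Havcr2*, *Klra2*, *Il18rap*, *Ikzf3*, *Runx3*, *Ccl3* and *Ccl5*. Among the receptors and adaptors 9 of 10 were lower in WT and 10 of 10 in AS, led by *Fcgr3*, the Fc receptor of antibody-dependent killing, with 99.3 ± 28.1 CPM in WT-dim and 0.0909 ± 0.0376 CPM in WT-bright (SD, n = 3 each), and in AS by the integrin gene *Itgal* (log2 fold change -8.50). Of 4 inhibitory receptors 3 were lower and 1 higher in each genotype, led by *Havcr2* in WT, with 36.2 ± 22.5 CPM in dim and 0.0909 ± 0.0378 CPM in bright (SD, n = 3 each), and by *Klra2* in AS, with 61.5 ± 17.7 CPM in dim and 0.0217 ± 0.0376 CPM in bright. The interleukin-18 receptor chain *Il18rap* led the 9 cytokine receptor and signalling genes, of which 4 were lower in WT and 7 in AS and 1 was higher in each, with log2 fold changes of -9.55 and -9.58. Of the 15 transcription factors 8 were lower in each genotype, and 1 was higher in WT and 2 in AS. The list was led in WT by *Ikzf3*, with 59.99 ± 19.6 CPM in dim and 0.0949 ± 0.164 CPM in bright, and in AS by *Runx3* (log2 fold change -8.68).

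*Dock2* led the 12 genes of the granule exocytosis list, of which 8 were lower in WT and 10 in AS, with log2 fold changes of -8.16 and -8.94. *Ctsc* led the 5 granule effectors, of which 1 was lower and 1 higher in WT and 2 lower and 1 higher in AS, with -5.86 and -7.06. The chemokines *Ccl3* in WT (-7.87) and *Ccl5* in AS (-9.35) led the 5 death ligands and cytokines, of which 4 were lower and 1 higher in each genotype. Of the 6 homing genes 5 were lower and 1 higher in each genotype. *Cd48*, a ligand of the NK receptor 2B4 that leukocytes carry, led the 10 NK receptor ligands, of which 3 were lower and 3 higher in WT and 4 lower and 3 higher in AS, with -9.05 and -7.50. The serpin *Serpinb6a*, an inhibitor of proteases, led the 5 inhibitors of cytotoxicity in the other direction, with 42.0 ± 12.5 CPM in WT-dim and 230 ± 18.2 CPM in WT-bright (log2 fold change 2.46, SE 0.28, adjusted p = 0.000289, edgeR). In AS its log2 fold change was 3.10. Of this list 2 genes were lower and 1 higher in WT, and 2 lower and 2 higher in AS. In the comparison of the AS effect between bright and dim cells, 2 of the 81 genes (2.47%, against 3.77% of all genes tested) passed, *Pdgfd* with a log2 difference of 1.72 and *Irf8*, a factor of myeloid and lymphoid cells, with 1.62.

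The 5 genes outside the group whose log2 CPM followed the mean of the 10 members most closely over the 6 dim libraries were *Dennd6a*, *Mmaa*, *Kif18a*, *Pdgfa* and *Peg12*. Their Pearson r was 0.991, 0.987, 0.984, 0.983 and 0.982. They were the highest of 12852 genes compared, and the 6 libraries share 2 genotypes and their depth. The levels of *Peg12* ran from 0 to 13.3 CPM and those of *Dennd6a* from 27.7 to 38.5 CPM.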

How the data were processed

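RNA of dim and bright tdT cells from the sieved glomeruli of 6 mice was sequenced, 12 libraries in all. The authors deposited raw counts per gene, made per their methods and processing notes with STAR 2.6.0c on GRCm38.p5 and Gencode M16 annotation, and the strand used for counting is not given in the sources used here. The authors also deposited RPKM values, used here only for levels per length. The tables had been filtered by the authors by a rule not given in the sources used here, so that a gene absent from a table has no value. Their columns of log fold change, log CPM, likelihood ratio, p-value and FDR were not used.

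Counts were tested with edgeR 4.0.16 (R 4.3.3; TMM, filterByExpr, quasi-likelihood F-test, Benjamini-Hochberg adjustment over all genes tested, threshold 0.05). AS was compared with WT in each subpopulation, bright with dim in each genotype over genes in both tables, and the AS effect between bright and dim. Rows of spike-in RNA, 0.0286 to 0.282% of counts, were left out. Dim and bright libraries of the same number came from 1 mouse per their codes, and their deviations from the group means correlated by 0.287, 0.223 and 0.097 in WT and by 0.0438, 0.312 and 0.136 in AS. The mouse was a block in an alternative, and between AS and WT the replicate number was, which does not mark the same mouse. Replicates differed by more than counting noise, with a chi-square per degree of freedom of 29.5 to 104. The scripts were tested on simulated data. Counting intervals cover counting error only.

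Members and lists were chosen with earlier results of these data known. Named were all members, per list the gene with the largest change past the threshold at an average log2 CPM above 1, the defining markers, and the 5 genes most like the members' mean. Coordinates are from Gencode M21 (GRCm38). The ratio to *Ptprc* and its form with the pan-leukocyte sum, which gave a median AS over WT ratio of 0.605, and the older edgeR version 3 fit were added after the data were seen. Alternatives were RLE or no normalization, DESeq2 1.42.0, the likelihood ratio test, other filters, the block, each replicate left out, all 12 libraries in 1 fit, and marker covariates. Single genes that the naming rule would give in the homing and B cell lists are not reported here.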

Additional observations from a re-analysis of the deposited data

How the results depend on the processing

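No member passed between AS and WT in dim or bright cells under any alternative run. In bright against dim cells of WT, 5 of the 6 members in both tables passed, where 11.5% of all genes tested were lower. All 6 passed with the mouse as a block, without WT-bright replicate 2 or with all 12 libraries in 1 fit. All but *Gzmb* entered through their dim counts, so that these numbers support no difference. The block changed no other call of a member. DESeq2 called 1 member, *Klrk1*, in the difference of the AS effect, which it entered only through its dim counts, and no other alternative called any. Estimates near 0 changed sign in dim cells. *Nkg7* turned to 0.082 with library sizes alone, 0.0069 with every gene kept and 0.066 with the replicate number as a block, and *Tbx21* to 0.058, 0.0084 and 0.087. *Tbx21* also turned to 0.00068 in the likelihood ratio test, 0.00081 with an average log2 CPM above 1, 0.00066 in the edgeR version 3 fit and 0.033 with all 12 libraries. With the pan-leukocyte covariate *Gzma* was 0.43, *Klrb1c* 0.64, *Klrk1* 0.16, *Ncr1* 0.30, *Nkg7* 0.95, *Prf1* 0.29 and *Tbx21* 0.95, and *Gzmb* in bright cells -0.31. With the proximal tubule covariate *Klrb1c* was 0.23, *Ncr1* 0.25 and *Nkg7* 0.83. Leaving out each replicate in turn gave -0.27 to 0.036 for *Klrk1*, -0.27 to 0.35 for *Nkg7*, -0.25 to 0.41 for *Tbx21*, -0.033 to 0.23 for *Eomes* and -0.93 to 0.17 for *Klrb1c* in dim cells, and -2.75 to 2.15 for *Eomes* and -0.11 to 2.78 for *Gzma* in the difference. The cause was not tested.

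Over all genes, the 1263 calls of AS against WT in dim cells became 2213 with DESeq2, 2106 with all 12 libraries, 494 with the replicate number as a block, 582 in the version 3 fit, 80 with the pan-leukocyte and 1 with the proximal tubule covariate, and 0 to 1825 with a replicate left out. The 65 calls in bright cells became 1117 with DESeq2, 897 in the likelihood ratio test, 887 and 0 with the covariates, 139 with all 12 libraries, 39 with every gene kept, 16 with the replicate number as a block, 0 in the version 3 fit and 0 to 281 with a replicate left out. The 569 calls of the difference became 1186 with DESeq2, 1092 in the likelihood ratio test, 877 with the mouse as a block and 252 to 857 with a replicate left out. Between AS and WT the replicate number as a block joins different mice that share only a number, and samples of the same number correlated by -0.118, -0.0921 and 0.0600 in dim and by -0.0775, -0.154 and 0.128 in bright cells. Counting noise is also a limit in the bright cells, where the members had 0 to 62 counts a library.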
